A study of Mus musculus with 18 samples.

Results

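The genes described here are 10 markers of the myoepithelial, or basal, layer of the mammary gland: the contractile genes Acta2, Myh11, Cnn1, Tagln and Mylk, the oxytocin receptor Oxtr, the transcription factor Trp63, the lectin Lgals7, and the hemidesmosome genes Col17a1 and Itgb4. They were found by gene name on a mouse 2-colour Agilent array, with older symbols allowed, and are measured by 23 probes, out of 28919 genes and transcripts measured by 41174 probes. Levels were followed in 3 groups, 9 RNA samples and 18 arrays. The KI group is 5 single mammary tumours of female FVB/N mice with an ErbB2 knock-in genotype, the NIC group is 2 pools that each combine equal amounts of RNA from 5 NIC tumours of female FVB/N mice, and the normal group is 2 whole mammary glands of female FVB/N mice. All 3 groups share the FVB/N background and come from whole flash-frozen tissue. The labels name neither the promoter that drives a transgene or knock-in allele nor the age of the mice, and they do not spell out NIC. The identifier of normal gland 2 carries the added letters PI, which the labels do not explain, so whether the 2 glands differ in age or state is not given. Each level is the log2 ratio of the sample over a commercial mouse reference RNA, averaged over 2 arrays with the dyes exchanged, so 0 means a level equal to that of the reference. A level can be set against the same probe in another sample but not against another probe.

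The normal mammary duct has an inner luminal layer and an outer myoepithelial layer that rests on the basement membrane. Myoepithelial cells carry smooth muscle actin and myosin and contract when oxytocin from the pituitary binds its receptor, which expels milk. They are anchored to the basement membrane by hemidesmosomes, in which integrin alpha6 beta4 and the transmembrane collagen XVII join keratin filaments to laminin. The transcription factor p63 (gene Trp63) maintains basal identity in stratified and glandular epithelia. Loss of the myoepithelial layer accompanies the passage from in situ to invasive breast carcinoma. The contractile genes are also expressed by smooth muscle of blood vessels, and in whole tissue fewer cells of a type and less RNA per cell cannot be told apart.

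The promoters of the contractile members are shown because Cnn1, and Acta2 on its brightest probe, were lower than normal in both kinds of tumour. Mylk was lower in KI tumours. Another Acta2 probe, described below, was higher in both kinds of tumour. A further reason is that serum response factor, which switches on smooth muscle genes, binds the CArG box. The 250 bases before the annotated gene start were taken from RefSeq (build GRCm38.p6), which had an entry for 6 of the 10 members. Capitals mark 2 motifs, searched on both strands. The first is the CArG box (2 C letters, 6 letters of which at least 5 are A or T, and 2 G letters, a pattern that reads the same way on either strand), and the second is CATTCC, the core of the MCAT element that TEAD factors bind. The 3 contractile members with an entry follow, at chr19:34255374-34255623 (- strand), chr9:22099003-22099252 (+ strand) and chr16:34784700-34784949 (+ strand).
Acta2: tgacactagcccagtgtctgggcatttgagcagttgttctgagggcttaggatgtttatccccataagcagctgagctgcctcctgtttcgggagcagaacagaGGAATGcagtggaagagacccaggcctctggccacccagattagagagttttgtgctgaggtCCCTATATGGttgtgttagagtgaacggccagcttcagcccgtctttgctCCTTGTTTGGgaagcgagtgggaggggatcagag
Cnn1: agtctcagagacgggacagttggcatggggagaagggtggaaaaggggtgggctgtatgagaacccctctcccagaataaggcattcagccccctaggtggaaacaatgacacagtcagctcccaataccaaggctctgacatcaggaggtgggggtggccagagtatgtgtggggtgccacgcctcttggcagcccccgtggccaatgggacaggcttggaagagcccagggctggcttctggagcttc
Mylk: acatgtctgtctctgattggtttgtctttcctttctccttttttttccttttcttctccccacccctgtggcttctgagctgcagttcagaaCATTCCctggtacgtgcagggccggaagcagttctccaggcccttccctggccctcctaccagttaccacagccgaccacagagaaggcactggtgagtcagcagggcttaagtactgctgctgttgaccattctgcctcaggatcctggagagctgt

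The Acta2 window held 2 CArG boxes of this kind, whose first bases lie 84 and 34 bases before the gene start, and a CATTCC match on the opposite strand 146 bases before it. The Mylk window held CATTCC 158 bases before the start and no CArG box. The Cnn1 window held neither motif. Of 32841 promoter windows of the same length without unread letters, 8.59% held such a CArG box and 12.6% held CATTCC on either strand. With all 6 inner letters required to be A or T, 1.47% of the windows and none of the 6 members' windows had a match. The Oxtr, Lgals7 and Col17a1 windows held neither motif. A missing match says only that these letters are absent from this stretch.

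Several facts of the series bear on all of the levels. Erbb2, the receptor altered in the KI tumours, had levels of 2.04, 3.41, 4.22, 3.88 and 4.02 in KI tumours, 1.82 and 1.68 in NIC pools, and -0.06 and -0.07 in normal glands on the probe A_51_P216179. Both kinds of tumour were above normal there. KI minus NIC was 1.76 on that probe (limma adjusted p = 0.100). On its brightest probe, A_52_P49250, the levels were 0.30 to 1.01 in KI tumours, 0.39 and 0.81 in NIC pools, and -1.08 and -1.29 in normal glands. KI minus NIC was 0.13 there (limma adjusted p = 0.766). On both this and the third Erbb2 probe the KI and NIC levels overlapped. KI values lie in a different deposited table, under a different platform record, from NIC and normal values. For comparisons that cross the tables, the table, the platform record and the KI group cannot be told apart. Pairs of RNA samples of the same group correlated across all probes at 0.70 to 0.89 among KI tumours, 0.93 between NIC pools and 0.87 between normal glands. The labels name separate tumours, pools and glands but not litters, so that a p-value covers only the spread among these samples. The small number of arrays limits the precision of every value.

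Among the 23 member probes, 10 were called in NIC against normal (2 higher and 8 lower), 13 in KI against normal (4 higher and 9 lower) and 1 in KI against NIC (higher in KI). A probe was called at an adjusted p under 0.05 by limma with Benjamini-Hochberg adjustment over all 41174 probes. The same rule called 18.4% of all probes in NIC against normal (9.82% higher, 8.62% lower), 42.2% in KI against normal (20.1% higher, 22.2% lower) and 6.99% in KI against NIC (3.02% higher, 3.97% lower). The median difference of the member probes was -0.84 in NIC against normal and -0.50 in KI against normal, beside -0.017 and 0.0098 over all probes, and it was 0.23 in KI against NIC, beside 0.00010 over all probes. The members called made up 43.5% of the member probes in NIC against normal, 56.5% in KI against normal and 4.35% in KI against NIC. The members called lower in NIC made up 34.8%, beside the 8.62% of all probes. With 1 probe for each gene, its brightest on average over the KI arrays, 6, 7 and 0 of the 10 genes were called in NIC against normal, KI against normal and KI against NIC. NIC and KI were set against the same 2 normal glands, and leaving out either NIC pool left 0 of 41174 probes called by limma in NIC against normal (9364 probes without pool 1 and 10592 without pool 2 had an unadjusted p under 0.05).

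**Figure D1:**
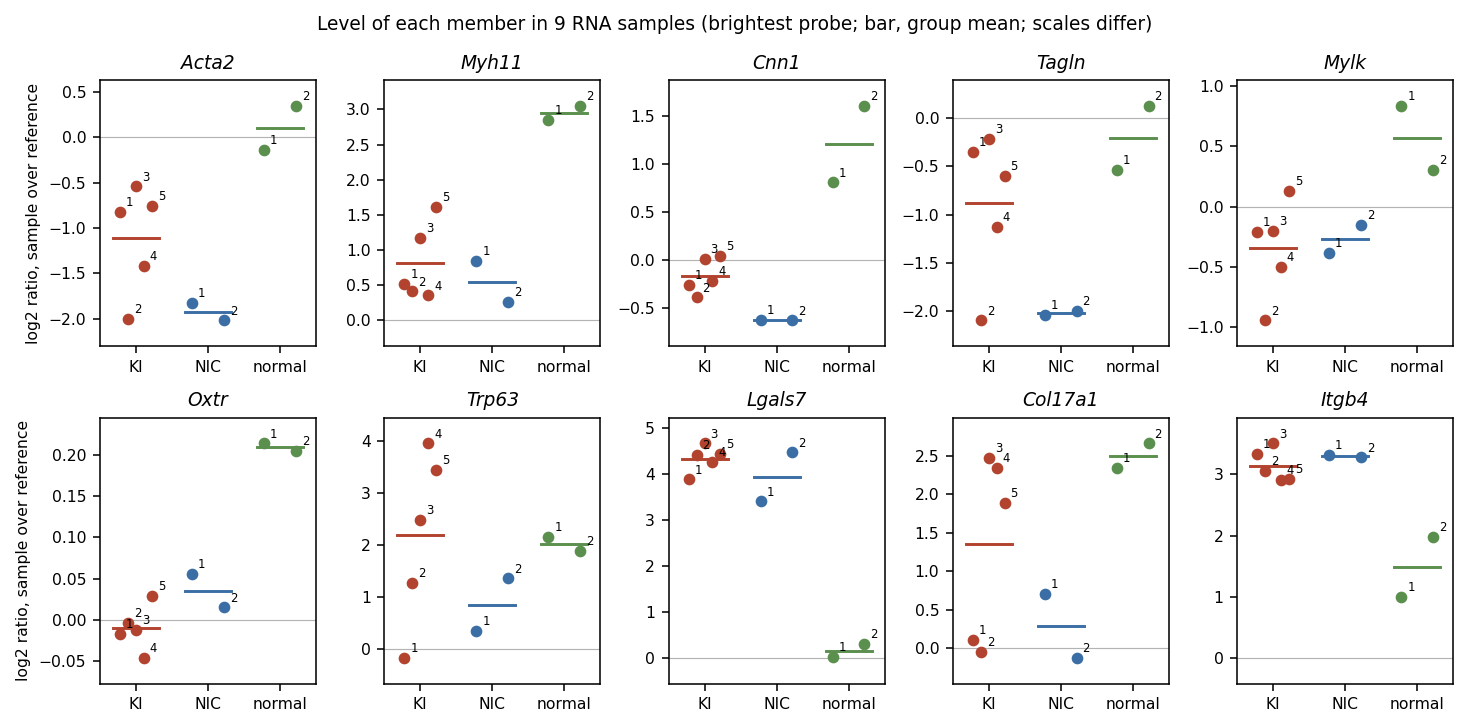
Level of each member in every RNA sample, on its brightest probe. Each panel has its own vertical scale, the log2 ratio of sample over reference RNA, with points for KI tumours (numbered 1 to 5), NIC pools and normal glands from left to right and bars at the group means. The contractile genes lie below the normal glands in NIC pools, Trp63 and Col17a1 spread widely among the KI tumours, and Lgals7 and Itgb4 lie above normal in both kinds of tumour.

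Acta2 encodes alpha smooth muscle actin, the thin filament of the contractile apparatus. Its brightest probe, A_52_P420504, which carries the older clone name 0610041G09Rik in the files, had levels of -0.82, -2.00, -0.54, -1.42 and -0.76 in KI tumours, -1.82 and -2.02 in NIC pools, and -0.14 and 0.34 in normal glands. All tumour samples lay below both normal glands, and KI tumour 2 lay among the NIC pools. The level was 2.03 log2 units lower in NIC than in normal on average (difference -2.03 ± 0.21, SE, 4.07-fold, limma adjusted p = 0.0199). It was 2.32-fold lower in KI than in normal (difference -1.21 ± 0.39, adjusted p = 0.0383), and KI minus NIC was 0.81 (95% interval -0.09 to 1.71, adjusted p = 0.262). The KI call was lost without KI tumour 4 (adjusted p = 0.073), without normal gland 1 (0.079) or 2 (difference -0.97, adjusted p = 0.209), and without either NIC pool in the shared fit (0.057).

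A second Acta2 probe, A_52_P210078, gave the one call between the tumour types. Its levels were -1.00, -1.91, -1.03, -1.62 and -0.77 in KI tumours, -2.86 and -2.69 in NIC pools, and -0.06 and 0.67 in normal glands. The 3 groups did not overlap, with NIC lowest and normal highest. The probe was 8.47-fold lower in NIC than in normal (adjusted p = 0.0177), 2.98-fold lower in KI than in normal (adjusted p = 0.0087) and 2.84-fold higher in KI than in NIC (difference 1.51 ± 0.34, adjusted p = 0.0421). The call between KI and NIC was lost on leaving out KI tumour 1, 3, 4 or 5 or either NIC pool, with adjusted p up to 0.211. It was also lost after quantile normalization (difference 1.06, adjusted p = 0.109), without the KI arrays of the smaller image extraction day (0.053), with the samples in Cy5 only (0.059) and with NIC pool 1 by its Cy3 array alone (0.076), while the difference stayed between 1.06 and 1.72 over all alternatives. The call in KI against normal was lost without normal gland 2 (difference -1.21, adjusted p = 0.073).

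The other 3 Acta2 probes did not follow these. A_51_P450957, assigned to the same RefSeq transcript as A_52_P210078, had levels of 0.17, -0.04, 0.21, 0.34 and -0.13 in KI tumours, 0.92 and 0.43 in NIC pools, and -1.16 and -2.37 in normal glands. It was higher in KI than in normal by 1.87 ± 0.31 (limma adjusted p = 0.00304). It was also higher in NIC than in normal, by 2.44 ± 0.50 (adjusted p = 0.0546, not called), and by 3.05 without normal gland 1. Alternatives other than leaving out 1 RNA sample called it in 11 of 11 fits for KI and in 6 of 10 for NIC. The lower level of the brightest Acta2 probe was called in 10 of 12 such fits for KI and in 11 of 11 for NIC. The 2 arrays of normal gland 2 read -1.10 with the gland in Cy5 and -3.65 with it in Cy3, the widest gap of any member probe and RNA sample. Actg2, the gamma smooth muscle actin of the enteric type and a close paralog, had levels of 0.25, -0.15, 0.24, 0.32 and -0.04 in KI tumours, 0.17 and -0.29 in NIC pools, and -1.34 and -2.11 in normal glands, and was called higher in KI than in normal (1.85, adjusted p = 0.00113). The direction of Acta2 thus rests on which probe is read. Whether this Acta2 probe also binds other actin transcripts was not tested. The remaining A_52_P239556 and A_52_P644232 stayed between -0.37 and 0.24 in all samples and were called nowhere, and the second of them was well above background for the sample on 1 of 10 KI arrays.

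Myh11 encodes the smooth muscle myosin heavy chain, the motor that pulls on actin. Its probe had levels of 0.52, 0.41, 1.17, 0.36 and 1.61 in KI tumours, 0.84 and 0.27 in NIC pools, and 2.85 and 3.05 in normal glands. Both normal glands were above all 7 tumour samples, and KI and NIC overlapped. Myh11 was 5.27-fold lower in NIC than in normal (difference -2.40 ± 0.25, adjusted p = 0.0193) and 4.40-fold lower in KI than in normal (difference -2.14 ± 0.37, adjusted p = 0.00349). With all arrays scaled to 1 spread the KI difference was -1.05 and not called (adjusted p = 0.107), and the NIC call was lost without normal gland 1 (0.058) or 2 (0.066). KI minus NIC was 0.26 (95% interval -0.60 to 1.12, adjusted p = 0.739).

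Cnn1 encodes calponin, an actin-binding protein that restrains myosin in smooth muscle. Its levels were -0.26, -0.39, 0.01, -0.22 and 0.05 in KI tumours, -0.62 and -0.63 in NIC pools, and 0.81 and 1.60 in normal glands. The 3 groups did not overlap, and the KI tumours lay between NIC and normal. Cnn1 was 3.56-fold lower in NIC than in normal (difference -1.83 ± 0.31, adjusted p = 0.0406) and 2.58-fold lower in KI than in normal (difference -1.37 ± 0.21, adjusted p = 0.00231). The KI call held under every alternative tried. KI minus NIC was 0.46 (95% interval -0.03 to 0.96, adjusted p = 0.249).

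Tagln encodes transgelin, another actin-binding protein of smooth muscle. On its brightest probe the levels were -0.35, -2.10, -0.21, -1.13 and -0.60 in KI tumours, -2.04 and -2.00 in NIC pools, and -0.54 and 0.13 in normal glands. KI tumours 1 and 3 lay between the normal glands, whereas KI tumour 2 lay below both NIC pools. Tagln was 3.51-fold lower in NIC than in normal (difference -1.81 ± 0.27, adjusted p = 0.0317), and its second probe was 2.45-fold lower (adjusted p = 0.0120). KI against normal was not called (difference -0.67, 95% interval -1.82 to 0.49, adjusted p = 0.314), nor was KI against NIC (1.14, 95% interval -0.01 to 2.30, adjusted p = 0.221). Without KI tumour 2 the KI level was called higher than the NIC level, by 1.45 (adjusted p = 0.036).

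Mylk encodes the calcium- and calmodulin-dependent kinase that phosphorylates myosin light chain and so starts contraction. On its brightest probe the levels were -0.21, -0.94, -0.20, -0.50 and 0.13 in KI tumours, -0.38 and -0.15 in NIC pools, and 0.83 and 0.31 in normal glands. All tumour samples lay below the normal glands, and KI tumour 2 was again the lowest. Mylk was 1.89-fold lower in KI than in normal (difference -0.92 ± 0.28, adjusted p = 0.0338), and the second probe, A_51_P272407, was 1.33-fold lower (adjusted p = 0.0075). The first of these calls was lost without KI tumour 4 (adjusted p = 0.066) and without normal gland 1 (difference -0.65, adjusted p = 0.216). In NIC against normal the difference was -0.84 and not called (95% interval -1.52 to -0.15, adjusted p = 0.0918). The third probe, A_52_P145912, had normal gland 1 at 0.50, above all tumour samples, and normal gland 2 at -0.23, within their range, and was called in no comparison.

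**Figure D2:**
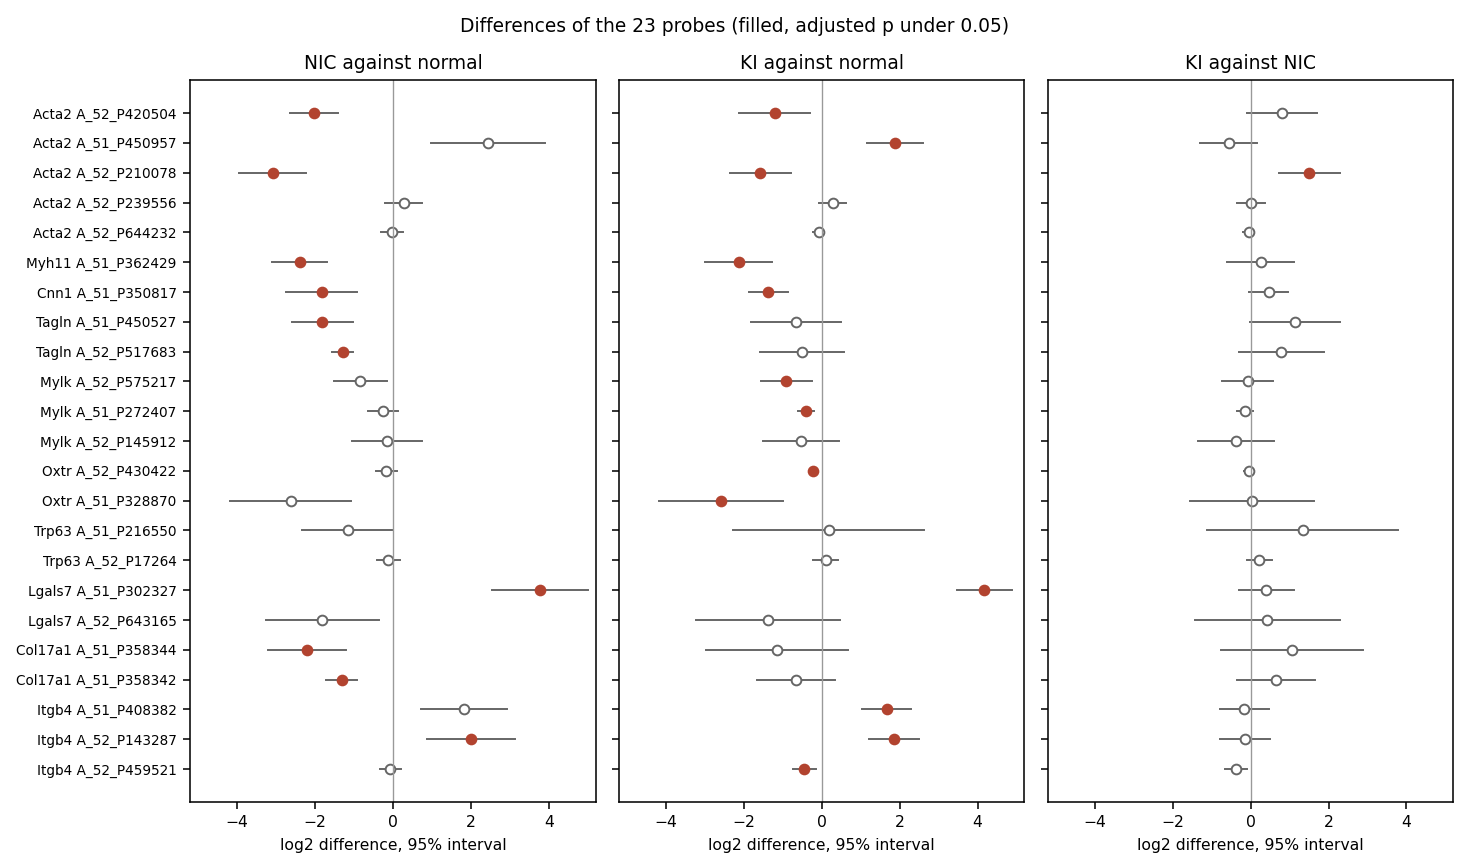
Log2 differences of the 23 member probes with 95% intervals from limma, in NIC against normal, KI against normal and KI against NIC. Filled points have an adjusted p under 0.05 over all 41174 probes. Filled points to the left in the first 2 panels are mostly contractile probes, the far right point is Lgals7 at 3.78 in NIC and 4.17 in KI, and the third panel has a single filled point, Acta2 A_52_P210078.

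Oxtr encodes the oxytocin receptor, a receptor that raises calcium in the myoepithelial cell. Both of its probes were dim, and the one with the slightly higher signal was nearly flat, with all 9 levels between -0.05 and 0.21. The other, A_51_P328870, had levels of 1.91, -0.03, 1.91, 0.16 and 0.20 in KI tumours, 1.06 and 0.52 in NIC pools, and 4.05 and 2.78 in normal glands. Both normal glands lay above all tumour samples, and KI tumours 1 and 3 lay well above the other 3. This probe was 6.01-fold lower in KI than in normal (difference -2.59 ± 0.68, adjusted p = 0.0190), a call lost without normal gland 1 (difference -1.95, adjusted p = 0.139). In NIC against normal its difference was -2.63 ± 0.53 (adjusted p = 0.0528, not called, and 0.049 without normal gland 2), and the arrays of NIC pool 1 read 1.92 with the pool in Cy5 and 0.20 with it in Cy3. The flat probe was called lower in KI than in normal at a difference of -0.22 (adjusted p = 0.0116).

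Trp63 encodes p63, the regulator of basal epithelial identity. On its brightest probe the levels were -0.17, 1.27, 2.48, 3.95 and 3.44 in KI tumours, 0.35 and 1.36 in NIC pools, and 2.15 and 1.89 in normal glands. KI tumours 3, 4 and 5 lay above both normal glands, while KI tumours 1 and 2 lay below them, a range of 4.12 log2 units among single tumours. KI against normal was therefore wide and not called (difference 0.18, 95% interval -2.28 to 2.63, adjusted p = 0.908), and its sign turned without KI tumour 4 (-0.26) or 5 (-0.14). In NIC against normal the difference was -1.16 (95% interval -2.33 to 0.0070, adjusted p = 0.129), and KI minus NIC was 1.34 (95% interval -1.11 to 3.79, adjusted p = 0.511). The second probe was dim, well above background on 7 of 10 KI arrays for the sample and on none for the reference, and KI tumours 3 to 5 were the highest there too, at 0.29, 0.50 and 0.33.

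Lgals7 encodes galectin-7, a beta-galactoside-binding lectin of stratified epithelia that was isolated in human cells as a p53-induced gene. On its brightest probe, A_51_P302327, the levels were 3.88, 4.41, 4.66, 4.26 and 4.44 in KI tumours, 3.40 and 4.47 in NIC pools, and 0.02 and 0.30 in normal glands. All tumour samples lay more than 3 log2 units above both normal glands, and KI and NIC overlapped. It was 18.1-fold higher in KI than in normal (difference 4.17 ± 0.30, adjusted p = 0.000152) and 13.7-fold higher in NIC than in normal (difference 3.78 ± 0.42, adjusted p = 0.0214). The KI call held under every alternative tried, and KI minus NIC was 0.40 (95% interval -0.31 to 1.10, adjusted p = 0.496). The NIC call was lost without normal gland 1 (adjusted p = 0.072) or 2 (adjusted p = 0.068).

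The second Lgals7 probe, A_52_P643165, which carries the same accession, ran the other way. Its levels were -1.35, -4.35, -1.45, -2.46 and -2.61 in KI tumours, -3.38 and -2.37 in NIC pools, and -1.48 and -0.65 in normal glands. It was not called in KI against normal (-1.38, 95% interval -3.24 to 0.47, adjusted p = 0.201) or in NIC against normal (-1.81, adjusted p = 0.0893). The direction of Lgals7 thus rests on which probe is read, and why they differ was not tested.

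Col17a1 encodes collagen XVII, the transmembrane collagen of the hemidesmosome. On its brightest probe the levels were 0.11, -0.04, 2.48, 2.34 and 1.88 in KI tumours, 0.71 and -0.12 in NIC pools, and 2.34 and 2.66 in normal glands. KI tumours 3, 4 and 5 lay near the normal glands, and KI tumours 1 and 2 lay among the NIC pools. Col17a1 was 4.62-fold lower in NIC than in normal (difference -2.21 ± 0.35, adjusted p = 0.0354), and its second, dimmer probe was 2.49-fold lower (adjusted p = 0.0192). NIC pool 1 read 1.61 with the pool in Cy5 and -0.19 with it in Cy3, and with the Cy5 array alone the first call was lost (difference -1.76, adjusted p = 0.149). That call was also lost without normal gland 1 (adjusted p = 0.088) or 2 (adjusted p = 0.106), and that of the second probe without normal gland 2 (0.058). KI against normal was not called (difference -1.15, 95% interval -2.97 to 0.67, adjusted p = 0.274), nor was KI against NIC (1.06, 95% interval -0.76 to 2.88, adjusted p = 0.480).

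Itgb4 encodes integrin beta4, the laminin-binding partner of alpha6 in hemidesmosomes. On its brightest probe the levels were 3.33, 3.05, 3.51, 2.90 and 2.93 in KI tumours, 3.32 and 3.28 in NIC pools, and 0.99 and 1.97 in normal glands. All tumour samples lay above both normal glands, within 0.60 log2 units of one another among the KI tumours. Itgb4 was 3.16-fold higher in KI than in normal (difference 1.66 ± 0.27, adjusted p = 0.00282). Its second bright probe, A_52_P143287, was 3.63-fold higher in KI (adjusted p = 0.00192) and 3.99-fold higher in NIC than in normal (adjusted p = 0.0496). In NIC against normal the brightest probe had a difference of 1.82 ± 0.38 and was not called (adjusted p = 0.0561), though it was without normal gland 1 (difference 1.33, adjusted p = 0.037) or 2 (0.041). The third probe, A_52_P459521, listed under the clone name C230078O20, was lower in KI than in normal by a small amount (-0.45, adjusted p = 0.0249), a call lost without normal gland 1 (adjusted p = 0.112) or 2 (adjusted p = 0.088). Its levels were 0.12 to 0.58 in KI tumours, 0.74 and 0.73 in NIC pools, and 0.83 and 0.78 in normal glands.

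**Figure D3:**
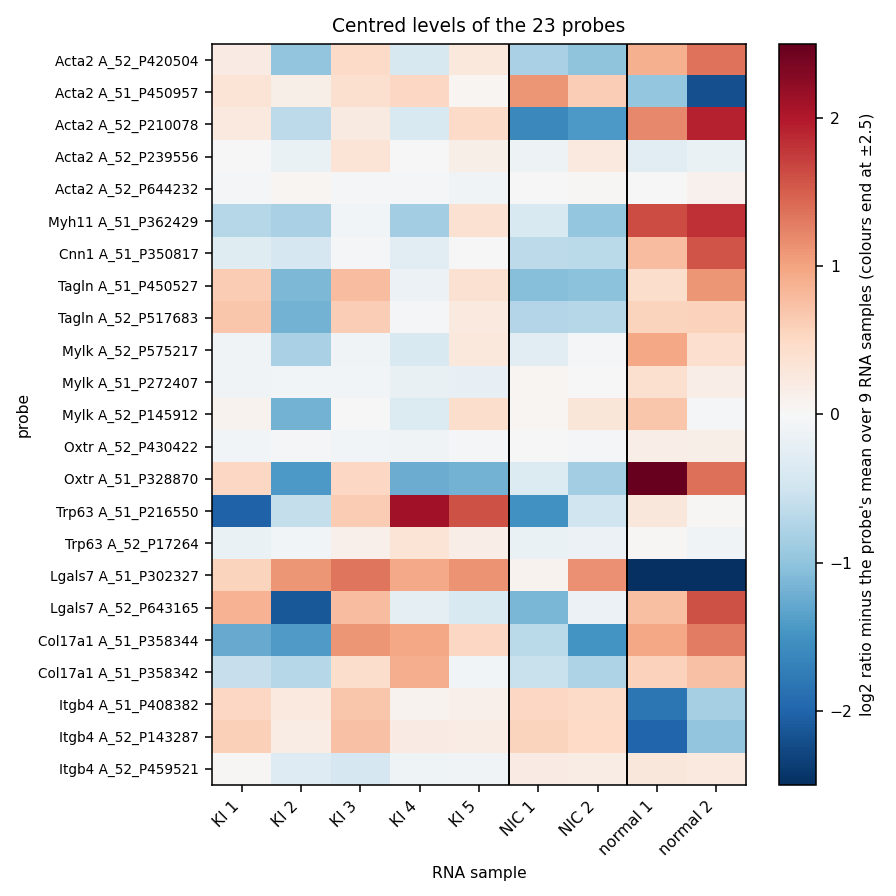
Level of each of the 23 probes in each RNA sample minus the mean of that probe over the 9 RNA samples, in log2 units, with KI tumours, NIC pools and normal glands from left to right. Red is above and blue below the mean of the probe, and colours end at 2.5 units. Trp63 and Col17a1 are low in KI tumours 1 and 2 and high in KI tumours 3 to 5, whereas the Acta2, Cnn1 and Tagln probes that fell in NIC are lowest in KI tumour 2 among the KI tumours.

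The single KI tumours therefore ordered differently for different members. KI tumour 2 was the lowest of the 5 for Acta2, Cnn1, Tagln, Mylk and Col17a1, KI tumour 1 for Trp63 and Lgals7, and KI tumour 4 for Myh11, Oxtr and Itgb4, each on the brightest probe. KI tumour 3 was the highest for Acta2, Tagln, Lgals7, Col17a1 and Itgb4, KI tumour 5 for Myh11, Cnn1, Mylk and Oxtr, and KI tumour 4 for Trp63. For Oxtr this order comes from the nearly flat probe, with a range of only 0.075 among the KI tumours. On the other Oxtr probe, A_51_P328870, with a range of 1.95, KI tumour 2 was the lowest and KI tumour 1 the highest. On the brightest probes the range among the 5 tumours was 2.52 for Col17a1 and 1.89 for Tagln, against 0.78 for Lgals7 and 0.44 for Cnn1. The second Lgals7 probe, A_52_P643165, had a range of 2.99, with KI tumour 2 the lowest and KI tumour 1 the highest.

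Likeness between members, each read by its brightest probe, was measured as the root mean square difference of their levels over the 9 RNA samples after centring. A value of 0 would be identical profiles. Acta2 was nearest to Tagln (0.28), Cnn1 to Acta2 (0.35) and Myh11 to Cnn1 (0.45). Mylk and Oxtr were nearest to each other (0.41), where Oxtr was read by its nearly flat probe. The other Oxtr probe, A_51_P328870, with levels from -0.03 to 4.05, was not used there. Trp63 was nearest to Col17a1 (0.92) while Col17a1 was nearest to Acta2 (0.74). Lgals7, on its brightest probe, was the farthest from 8 of the other 9 members and nearest to Itgb4 (1.08). This rests on that probe: the second Lgals7 probe, A_52_P643165, lay 2.48 from the first, was nearest to Tagln (0.55), and in place of the first would be the farthest from 0 of the 9. Among all 28919 genes and transcripts the 3 nearest to Acta2 on its brightest probe were Gsdmd (0.14), Apobec1 (0.15) and Icam2 (0.18). Each had its normal glands above its KI and NIC samples. For A_51_P450957, the Acta2 probe that ran the other way, the nearest were others, Usf2 (0.18) among them. The 3 nearest to Trp63 were Krt5 (0.65), the basal keratin that p63 regulates, Sbspon (0.71) and the Notch ligand Jag2 (0.72). Krt5 had levels of 0.19, 0.16, 2.06, 2.49 and 2.07 in KI tumours, 0.68 and 0.35 in NIC pools, and 1.47 and 1.74 in normal glands, with the same split between KI tumours 1 and 2 and KI tumours 3 to 5. These are descriptions over 9 samples that share 1 reference RNA.

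**Figure D4:**
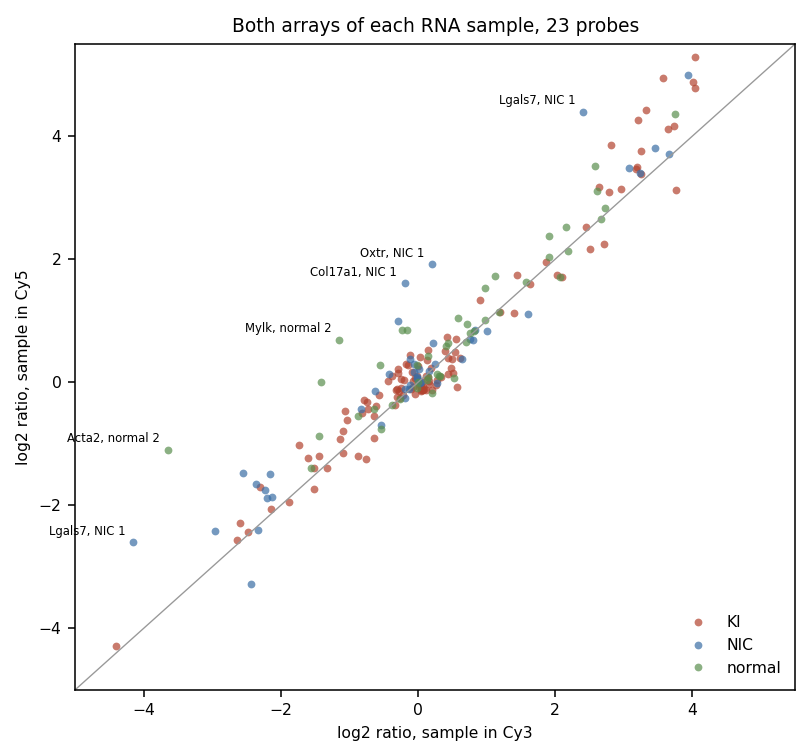
Level of each of the 23 probes in each RNA sample on its 2 arrays, with the sample in Cy3 on the horizontal and in Cy5 on the vertical axis, both as log2 ratios of sample over reference. Points are coloured for KI, NIC and normal, the line marks equal values, and the pairs that differ by more than 1.5 units are named. Most pairs lie near the line, and the named ones belong to NIC pool 1 and normal gland 2.

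The 2 arrays of an RNA sample differed by a median of 0.25 log2 units over the 207 pairs of probe and RNA sample, and 17 pairs differed by more than 1. NIC pool 1 had the largest median gap (0.32), and its gaps exceeded 1 for both Lgals7 probes and for Col17a1, Oxtr and Trp63 (0.99 in Cy5 and -0.29 in Cy3 for Trp63). Normal gland 2 had gaps over 1 for 2 Acta2 probes, 2 Mylk probes and 1 Tagln probe. In each of these pairs the array with the sample in Cy5 read higher.

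Some calls ended when 1 dye, another scaling or more samples were used, and some member probes became called in NIC against normal. The label fields were followed for the dyes, but for 7 of 10 KI arrays the protocol text gives the dyes the other way round, so which KI arrays make up a Cy3-only or Cy5-only value rests on the label fields. With all 9 RNA samples in the fit, NIC against normal lost Col17a1 on both probes (adjusted p = 0.102 for A_51_P358344 and 0.081 for A_51_P358342) and Tagln A_52_P517683 (0.107). That fit gained Acta2 A_51_P450957 (higher, limma adjusted p = 0.00277), Itgb4 A_51_P408382 (higher, 0.00498) and Oxtr A_51_P328870 (lower, 0.039). Calls over all probes rose from 7594 to 15060 there. With the samples in Cy3 only, NIC against normal lost Cnn1 (adjusted p = 0.094), Tagln (0.051 and 0.083 for its probes), Lgals7 (0.085) and Itgb4 A_52_P143287 (0.086), and KI against normal lost Acta2 A_52_P420504 (0.083) and Mylk A_52_P575217 (0.15). With the samples in Cy5 only, NIC against normal lost Col17a1 A_51_P358344 (0.128), and KI against normal lost the flat Oxtr probe (0.086) and Itgb4 A_52_P459521 (0.068). In Cy5 only, NIC against normal gained Mylk A_52_P575217 (lower, limma adjusted p = 0.017) and Lgals7 A_52_P643165 (lower, 0.043). It also gained Acta2 A_51_P450957 (higher, 0.012) and Itgb4 A_51_P408382 (higher, 0.0497). With all arrays scaled to 1 spread, KI against normal lost both Oxtr probes (difference -1.32 and adjusted p = 0.223 for A_51_P328870), Mylk A_52_P575217 (0.083) and Itgb4 A_52_P459521 (difference -0.12, adjusted p = 0.576), and NIC against normal lost Col17a1 A_51_P358344 (difference -1.39, adjusted p = 0.069). After that scaling NIC against normal gained Lgals7 A_52_P643165 (lower, limma adjusted p = 0.048), Acta2 A_51_P450957 (higher, 0.043) and Itgb4 A_51_P408382 (higher, 0.016). Quantile normalization gained the same Acta2 probe (0.035) and Oxtr A_51_P328870 (lower, 0.046) in NIC against normal. In KI against normal the higher calls of Lgals7 A_51_P302327, Itgb4 A_51_P408382 and A_52_P143287, and Acta2 A_51_P450957 held under every setting. So did the lower calls of Cnn1 and Mylk A_51_P272407.

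Beyond the members, lists of related genes were read by 1 probe for each gene. The counts called in each list stand beside 18.4% of all probes called in NIC against normal, 42.2% in KI against normal and 6.99% in KI against NIC. Of 24 other contractile genes, 3 were called higher and 8 lower in NIC against normal, 7 higher and 8 lower in KI against normal, and 1 higher in KI against NIC. Their median difference was -0.08 in NIC against normal and 0.14 in KI against normal, close to that of all probes. Large falls were shared by both tumour types. Fhl1, a LIM protein of muscle, was 3.53 log2 units lower in NIC and 2.35 lower in KI than in normal (differences -3.53 and -2.35, adjusted p = 0.0115 and 0.00131). Tns1, the focal adhesion protein tensin, had differences of -2.60 and -2.31. Actn1, the non-muscle alpha-actinin, and Cald1, caldesmon, were higher in both, by 2.21 and 2.74 in NIC and by 2.16 and 1.78 in KI. Pdlim7, a PDZ-LIM protein, was 2.14 higher in KI than in NIC (adjusted p = 0.0433).

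Of 4 genes for serum response factor and its coactivators, 0 were higher and 1 lower in NIC (Mrtfb, -0.60, adjusted p = 0.0363), and 0 higher and 2 lower in KI (Myocd, -0.51, and Mrtfb, -0.41). The median difference of these 4 genes was -0.15 in NIC against normal and -0.0091 in KI against normal. With 4 genes, these counts are not set apart from the shares of all probes called, 18.4% and 42.2%. Myocd encodes myocardin, the coactivator that drives smooth muscle genes. Of 10 genes for oxytocin and calcium signalling, 1 was lower in NIC (Plcb1, -1.35), and 4 were higher and 1 lower in KI. Gnaq, the G protein alpha subunit to which the oxytocin receptor couples, was 1.65 higher in KI than in normal (adjusted p = 0.00618), and Plcb1, the phospholipase it activates, was 0.82 log2 units lower (difference -0.82, adjusted p = 0.00618). Rock2 and Rock1, kinases that keep myosin phosphorylated, were 1.46 and 1.03 higher in KI. Plcb4 was lower in KI than in NIC (-2.19, adjusted p = 0.0205).

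Of 14 other genes of hemidesmosomes and anchoring junctions, 2 were higher and 1 lower in NIC against normal, 5 higher and 2 lower in KI against normal, and 2 higher and 0 lower in KI against NIC. Their median difference was 0.11 in NIC and 1.10 in KI, beside medians near 0 over all probes. Itga6, which encodes the partner of integrin beta4, was 1.47 higher in NIC (adjusted p = 0.0126) and 1.63 higher in KI (adjusted p = 0.00646). Lamb3, a chain of laminin-332, the ligand of that integrin, had levels of 2.91, 2.88, 2.01, 2.32 and 2.42 in KI tumours, -0.31 and -0.03 in NIC pools, and -0.20 and 0.34 in normal glands. All KI tumours lay above all other samples, and Lamb3 was 2.68 higher in KI than in NIC (adjusted p = 0.00366) and 2.44 higher than in normal (adjusted p = 0.000698). Pkp1, the desmosomal plakophilin, was 1.98 higher in KI than in NIC (adjusted p = 0.0320). Lama3, another chain of laminin-332, was lower in NIC than in normal (-1.24, adjusted p = 0.0162), and Dst, the plakin that ties keratin to the hemidesmosome, was lower in KI than in normal (-1.36, adjusted p = 0.0398).

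Of 16 p63 targets and basal identity genes, 3 were higher and 3 lower in NIC against normal, 8 higher and 5 lower in KI against normal, and 1 higher in KI against NIC. That last gene was Krt14, the basal partner of Krt5, with levels of 2.99, 2.41, 2.86, 2.48 and 2.71 in KI tumours, -0.12 and -0.20 in NIC pools, and 0.67 and 1.46 in normal glands. The 3 groups did not overlap, and Krt14 was 2.85 higher in KI than in NIC (adjusted p = 0.00195) and 1.62 higher in KI than in normal (adjusted p = 0.00170). Unlike Krt5 and Trp63, it was high in all 5 KI tumours. Snai2, a transcription factor of basal mammary cells, was lower in both tumour types (-3.95 in NIC, adjusted p = 0.00936, and -2.53 in KI, adjusted p = 0.0271). Perp, a p63 target in desmosomes, was higher in both (2.77 in NIC and 2.33 in KI). Krt5 itself was lower in NIC than in normal (-1.09, adjusted p = 0.0398).

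Markers of other cell types moved in the same comparisons, and their part in the results above was not tested. Of 11 markers of vascular smooth muscle and pericytes, 0 were higher and 3 lower in NIC (Mcam, -1.78, Pdgfrb, -1.52, and Des, -1.44), and 0 higher and 1 lower in KI (Gucy1b1, -0.66). Their median level was 0.27 to 1.58 in KI tumours, 1.21 and 1.26 in NIC pools, and 0.92 and 1.33 in normal glands, so the groups overlapped. Des was 1.69 higher in KI than in NIC (adjusted p = 0.0159). Of 10 endothelial markers, 6 were lower in NIC and 3 in KI, with median levels of 0.94 to 2.25 in KI, 1.17 and 1.42 in NIC, and 2.69 and 3.03 in normal.

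Of 10 adipocyte markers, 7 were lower in NIC and 8 in KI, with median levels of -0.07 to 0.28 in KI tumours, -0.0071 and 0.15 in NIC pools, and 3.14 and 3.79 in normal glands. Of 10 fibroblast markers, 5 were lower in NIC and 4 in KI, with median levels of -1.38 to 0.51 in KI, -1.72 and -0.42 in NIC, and 1.73 and 1.94 in normal. Of 12 luminal markers, 6 were higher and 2 lower in NIC and 7 were higher and 1 lower in KI, with median levels of 2.16 to 2.72 in KI, 2.43 and 2.48 in NIC, and 0.94 and 1.06 in normal. Tumours and normal glands therefore differed in fat, stroma and luminal markers over the same contrasts as in the members. Of 10 skeletal muscle markers, 1 was lower in NIC and 3 in KI (median level -0.52 to 0.74 in KI, -1.21 and -1.05 in NIC, -0.69 and 0.71 in normal). Of 10 epidermal markers, 0 were called in NIC and 2 were lower in KI (Flg, -0.53, and Lor, -0.45), and the median stayed between 0.08 and 0.33 in all samples. The other 8 were not called in KI against normal, yet some of them varied among the KI tumours. Krt10 had levels of -0.17, -0.17, 0.37, 1.95 and 2.13 in KI tumours 1 to 5, and Klk7 had 0.26, 0.32, 1.84, 1.81 and 0.85.

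**Figure D5:**
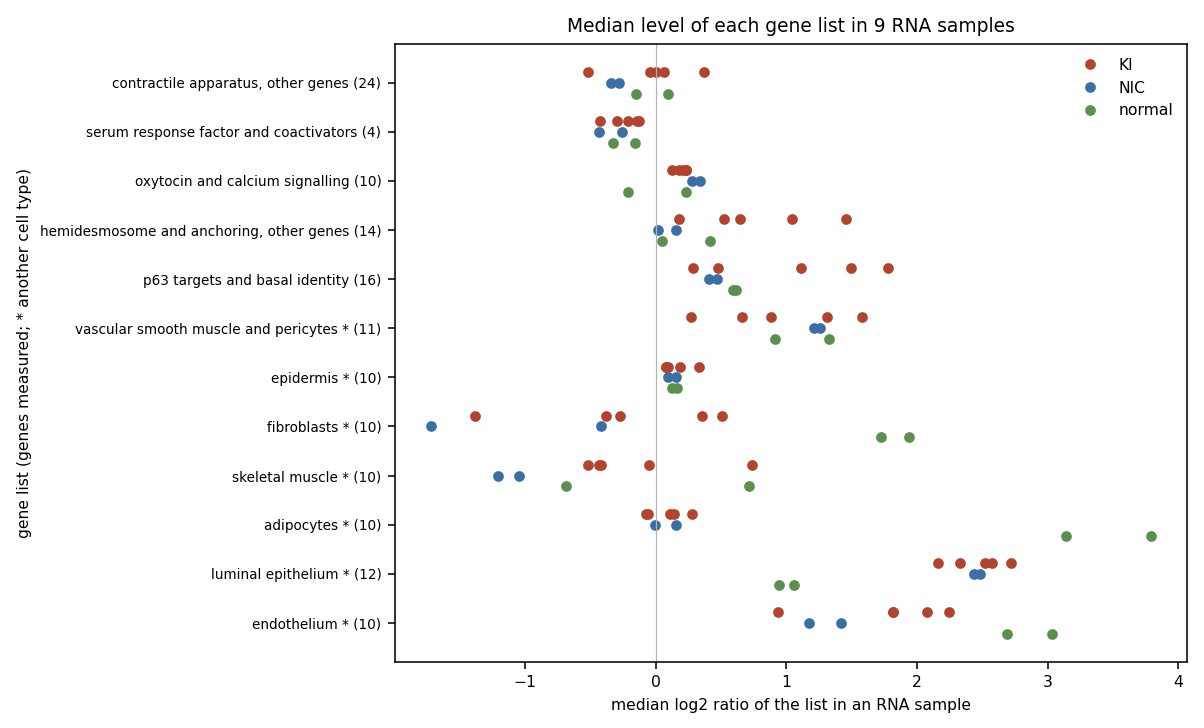
Median log2 ratio of sample over reference of each gene list in each RNA sample, for KI, NIC and normal from top to bottom within a list. The number of genes measured is in brackets and an asterisk marks lists of other cell types. Adipocyte medians lie at 3.14 and 3.79 in normal glands and at or under 0.28 in all tumour samples, luminal medians lie between 2.16 and 2.72 in all tumour samples, and vascular smooth muscle medians overlap between the groups.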

How the data were processed

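Messenger RNA from 5 KI tumours, 2 NIC pools and 2 normal glands was hybridised against a commercial mouse reference RNA (Stratagene), each on 2 arrays with the dyes exchanged. The deposited value tables hold log2 ratios, which the authors computed by steps not given in the sources used here beyond the name RMA in the submitters' processing notes. Setting the KI columns against the scanner values of the same arrays (r of 0.982 to 0.988) showed them to be log2 of sample over reference, and the NIC and normal columns, which have no scanner values here, were read the same way by analogy. Column medians were -0.0049 to 0.017, and interquartile ranges were 0.42 to 0.56 for KI, 0.49 to 0.53 for NIC and 0.75 to 0.92 for normal. Deposited scanner files of the 10 KI arrays, written by Agilent's Feature Extraction software per the file headers, gave intensity values and a log10 ratio, used for probe names, signal, background flags and an alternative (normexp, offset 50, then loess). Probe names at each spot were taken to hold for the NIC and normal arrays as well, which stand under another platform record.

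All 2256 control spots were left out, and spots of a probe were averaged. Names came by accession (20716 probes), current symbol (5039) or older symbol (5279) through RefSeq (GRCm38.p6), and 10140 probes kept the name in the file. The replicate was the RNA sample. limma 3.58.1 in R 4.3.3 was fitted to all 41174 probes (lmFit, eBayes, two-sided), on 4 RNA samples for NIC against normal and on all 9 for the comparisons with KI, where pools and single tumours share 1 estimate of the spread. On simulated data with 200 probes changed, the fit for NIC against normal called 0% of them at a log2 change of 1 or 2 and 86.5% at 4, against 58.5%, 89.5% and 97% for KI against normal and 53.5%, 86% and 100% for KI against NIC. On the simulated data only 200 of 41174 probes were changed, whereas 7594 were called in the real comparison of NIC against normal. The adjustment was therefore stricter on the simulated data. In the real comparison differences under 2 were called, such as -1.30 for Tagln A_52_P517683 (limma adjusted p = 0.0120). A ± value is a standard error. Alternatives changed the probe choice, dye, scaling, prior, samples, image extraction day and the source of the KI values, and those on single arrays of NIC pool 1 were chosen after seeing the data. Genes named from lists are at most the 3 called genes with the largest difference in each direction, and the nearest profiles are the 3 nearest genes. One gene that this rule names is not reported here. Members and lists were chosen with earlier results of these data known.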

Additional observations from a re-analysis of the deposited data

Results flagged for a closer look

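Among the 83 probes of the members and of the named list genes, 4 had a KI tumour whose gap to the nearest other tumour took up more of the range of the 5 tumours than Dixon's critical value of 0.71 allows. Chance gives such a gap in about 1 of 20 groups. No member was among them. Mcam, a pericyte and endothelial marker, was lowest in KI tumour 2 at 1.33, the tumour that was also lowest for Acta2 and Tagln. Mme, the basal surface marker CD10, was highest in KI tumour 3 at 2.60, near its NIC and normal levels. Myocd was highest in KI tumour 1 at 0.082, and the skeletal muscle gene Ttn was highest in KI tumour 2 at 0.21, both close to the level of the reference RNA.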

How the results depend on the processing

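Counting members by their brightest probe, 6 of 10 were called in NIC against normal, and 3 were called with the samples in Cy3 only and 0 to 4 on leaving out 1 RNA sample. In KI against normal 7 were called, 4 with all arrays scaled to 1 spread and 5 to 7 on leaving out 1 RNA sample. In KI against NIC 0 were called, 1 with the RNA as a random block over all arrays (limma duplicateCorrelation) and 0 to 1 on leaving out 1 RNA sample. The member in question was Tagln. All probes called in NIC against normal were 7594, with 2905 in Cy3 only, 15384 under the random block, 4969 among the probes above the median signal (fewer were tested), 15060 with all 9 RNA samples in the fit, 4391 with NIC pool 1 by its Cy3 array alone (chosen after seeing the data), and 0 to 5051 on leaving out 1 RNA sample (the lone sample of a group is then taken to vary like the others). In KI against normal they were 17391, with 11239 after scaling to 1 spread, 9669 above the median signal, and 12934 to 16786 on leaving out 1 RNA sample. In KI against NIC they were 2878, with 1792 by 1 probe per gene (fewer were tested), 6073 under the random block, 1561 after quantile normalization, 1271 above the median signal, 6027 with KI values from the scanner files after loess, and 821 to 3157 on leaving out 1 RNA sample.

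Among the member probes examined under the alternatives, signs turned only where neither value was called. For KI against NIC only the brightest probe of each member, Acta2 A_52_P210078 and Oxtr A_51_P328870 were examined. In NIC against normal Acta2 A_52_P644232 was 0.033 in Cy5 only, Mylk A_52_P145912 was 0.16 in Cy3 only and Itgb4 A_52_P459521 was 0.23 after scaling to 1 spread, and the first 2 ranged from -0.082 to 0.029 and from -0.52 to 0.22 on leaving out 1 RNA sample. In KI against normal Trp63 was -0.29 with scanner values after loess and -0.080 with the log ratio of the scanner software, and Acta2 A_52_P644232 was 0.062 with that log ratio. In KI against NIC, Myh11 (-0.059), Lgals7 (-0.11) and Oxtr A_51_P328870 (-0.088) turned with scanner values after loess, and Itgb4 was 0.14 after scaling and 0.22 after quantile normalization. With 1 dye, Oxtr A_52_P430422 was 0.076 in Cy3 only and A_51_P328870 -0.41 in Cy5 only. With NIC pool 1 by a single array, Mylk was 0.042 and Oxtr A_52_P430422 0.0097 by Cy3, and Lgals7 was -0.098 and Oxtr A_51_P328870 -0.39 by Cy5. On leaving out 1 RNA sample the KI minus NIC values ran from -0.13 to 0.93 for Lgals7, -0.028 to 0.55 for Myh11, -0.20 to 0.070 for Mylk and -0.23 to 0.31 for Oxtr A_51_P328870, and KI minus normal from -0.26 to 0.77 for Trp63. The cause of these changes was not tested. No paired analysis was possible because replicate numbers do not pair animals across the groups.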
